A study of Mus musculus with 4 samples.

Results

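The genes described here are 37 interferon response genes, chosen by name from the 26033 genes counted in each library. They cover the products that cells switch on when an interferon signals: antiviral effectors, sensors of foreign nucleic acid, transcription factors and interferon-inducible GTPases. The choice went by name and not by a measured value, but it was made with earlier results of these data known. All 37 had at least 1 UMI (unique molecular identifier, a counted RNA molecule) in each of the 4 libraries.

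The data were single-cell RNA counts from CD45+ cells, the marker shared by leukocytes, sorted from salivary glands of mice aged 20 days. Csf2-/- mice, which lack GM-CSF, the myeloid growth factor encoded by Csf2, gave 1 female and 1 male library. Csf2+/- mice of the same age, which carry 1 working copy, also gave 1 female and 1 male library and were the only controls. Each library was a pool of 2 mice, so the pools held 8 mice in all. The labels give the strain as C56BL/6 and name no wild-type group, no transgene and no added agent.

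The libraries held 111981802 UMIs in the Csf2-/- female, 116465859 in the Csf2-/- male, 122366588 in the Csf2+/- female and 113728825 in the Csf2+/- male. Of 39395 barcodes, 34805 were used as cells, and 308 of these carried a barcode sequence found in more than 1 library. Median depth was lower in the Csf2-/- libraries, at 8757 and 8819 UMIs per cell, than in the Csf2+/- libraries, at 10508 and 10120. The cells fell into 38 clusters, which were named from marker genes ("macrophage-like" and so on) and pooled into 15 named classes. The interferon genes were left out of the genes used for clustering. A cluster led by Retnla and Fn1 had 73 and 50 cells in the Csf2-/- libraries, against 271 and 326 in the Csf2+/- libraries, and was kept apart under the names of those genes. Cell names were rebuilt here and not taken from the study. 1 NK-like cluster of 160 cells, led by salivary secretory genes, held 151 cells from the Csf2-/- female library.

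The labels were checked on Csf2 itself. In ILC2-like cells (group 2 innate lymphoid cells, a known source of GM-CSF) Csf2 stood at 6.58 and 5.76 CPM in the Csf2-/- female and male libraries, against 123.8 and 138.9 CPM in the Csf2+/- libraries. CPM is a gene's share of the UMIs summed over a class in a library, scaled to a total of 1e6. The log2 fold change was −4.46 (adjusted p = 8.93e-08, edgeR's quasi-likelihood test with Benjamini-Hochberg adjustment over all genes tested in the class, used for every genotype and sex comparison here). Values per library are given throughout with the female library before the male.

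As background, type I interferons bind the receptor pair IFNAR1 and IFNAR2. The receptor's kinases then activate STAT2, which acts with IRF9 in the ISGF3 complex, and this complex binds interferon-stimulated response elements in the promoters of genes such as Ifit1 and Isg15. Interferon gamma binds IFNGR1 and IFNGR2 and acts through gamma-activated sites, with genes such as Gbp2, Igtp and Cxcl9 among its targets. In unchallenged tissue many of these genes are still expressed at a low tonic level, and plasmacytoid dendritic cells are known for constitutive IRF7.

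RefSeq promoters (build GRCm38.p6, 250 bases before to 50 after the start of transcription) were found for 30 of the 37 genes. A simple form of the interferon-stimulated response element, the letters GAAA and again GAAA with any 2 bases between, was searched on both strands, and matches may overlap. It lay in the promoter of 18 of the 30 genes (60%), against 3.99% of 27025 genes with a promoter in the same table. The letters TTCNNNGAA, a simple form of the gamma-activated site and also searched on both strands, lay in 7 of the 30 (23.3%), against 9.55% of all genes. A match of these letters is a description and not evidence of binding. The stretches below come from the promoters of genes whose values carry the comparisons that follow: Bst2, Rsad2 and Phf11b were higher and Gbp3 and Gbp7 lower in Csf2-/- cDC2-like cells, and Gbp2 was lower in Csf2-/- migratory dendritic cells. Each is 100 bases read 5′ to 3′ on the gene's strand, before its start, and capitals mark the response element letters on either strand, with overlapping matches run together.
Bst2, chr8:71537533-71537632, minus strand: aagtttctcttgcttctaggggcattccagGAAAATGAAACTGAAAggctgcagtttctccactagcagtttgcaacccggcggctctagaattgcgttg
Rsad2, chr12:26456503-26456602, minus strand: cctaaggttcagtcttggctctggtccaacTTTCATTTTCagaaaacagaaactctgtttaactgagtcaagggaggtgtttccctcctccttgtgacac
Phf11b, chr14:59341331-59341430, minus strand: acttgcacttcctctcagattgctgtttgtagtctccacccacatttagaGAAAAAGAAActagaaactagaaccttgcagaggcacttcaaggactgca
Gbp3, chr3:142559944-142560043, plus strand: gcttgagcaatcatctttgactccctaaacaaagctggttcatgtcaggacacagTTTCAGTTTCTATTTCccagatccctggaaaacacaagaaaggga
Gbp7, chr3:142530236-142530335, plus strand: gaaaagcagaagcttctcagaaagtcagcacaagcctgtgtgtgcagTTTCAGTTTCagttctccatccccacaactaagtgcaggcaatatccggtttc
Gbp2, chr3:142620563-142620662, plus strand: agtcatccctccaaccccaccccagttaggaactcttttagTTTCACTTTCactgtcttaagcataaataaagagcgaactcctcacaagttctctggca
Genes that were higher and genes that were lower in the Csf2-/- cells both carried these letters, while the promoters given for Irf7, Ifi47 and Herc6 held neither motif. The 100-base stretches chosen by the same rule for Ifit3 and its near-copy Ifit3b were identical, and reads of the pair may not be told apart, so their separate counts are uncertain.

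Across the 13 cell classes that were ordered, the interferon response genes were most abundant in monocyte-like and macrophage-like cells and lowest in salivary epithelial cells. Bst2 and Ifitm3 alone were so abundant that the other 35 genes were summed without them. That sum averaged 1767 ± 242.9 CPM in monocyte-like cells (SD, n = 4 libraries, as for all levels across classes) and 1657 ± 153.8 CPM in macrophage-like cells. It was 1302 ± 182.0 CPM in cDC2-like cells (type 2 conventional dendritic cells) and 1226 ± 234.3 CPM in plasmacytoid dendritic cells. It was 1180 ± 272.8 CPM in the Retnla Fn1 cluster, 1173 ± 147.8 CPM in migratory dendritic cells and 1047 ± 124.4 CPM in cDC1-like cells. Lymphoid classes were lower: 915.7 CPM in alpha-beta T cells, 745.2 in NK-like and ILC1-like cells, 716.7 in B cells, 630.4 in gamma-delta T cells and 520.8 in ILC2s. Epithelial cells stood at 84.9 ± 12.2 CPM. The plasmacytoid values rest on few cells, 33 and 47 in the Csf2-/- and 35 and 22 in the Csf2+/- libraries. Their smallest library held 285724 UMIs, where the order required 250000. Macrophage-like cells lay above cDC2-like cells, and ILC2s above epithelial cells, in all libraries, while all other neighbours in this order overlapped. Neutrophils, with 20 to 43 cells per library, had 1996 ± 821.5 CPM and were left out of the order for their few UMIs, as were eosinophils and fibroblasts. Fibroblasts, with 11 to 17 cells per library, had 1771 ± 789.9 CPM. An unnamed cluster of 137 cells, which scored highest on endothelial markers, had 2107 ± 111.8 CPM and was not ordered either. Its Rsad2 stood at 421.7 and 313.3 CPM in Csf2-/- and 463.6 and 445.7 CPM in Csf2+/- cells. The genes below are ranked among the 13 ordered classes. By the median over single cells, cDC2-like cells ranked 7th of these 13 classes instead of 3rd, while monocyte-like and macrophage-like cells still ranked first and second.

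**Figure D1:**
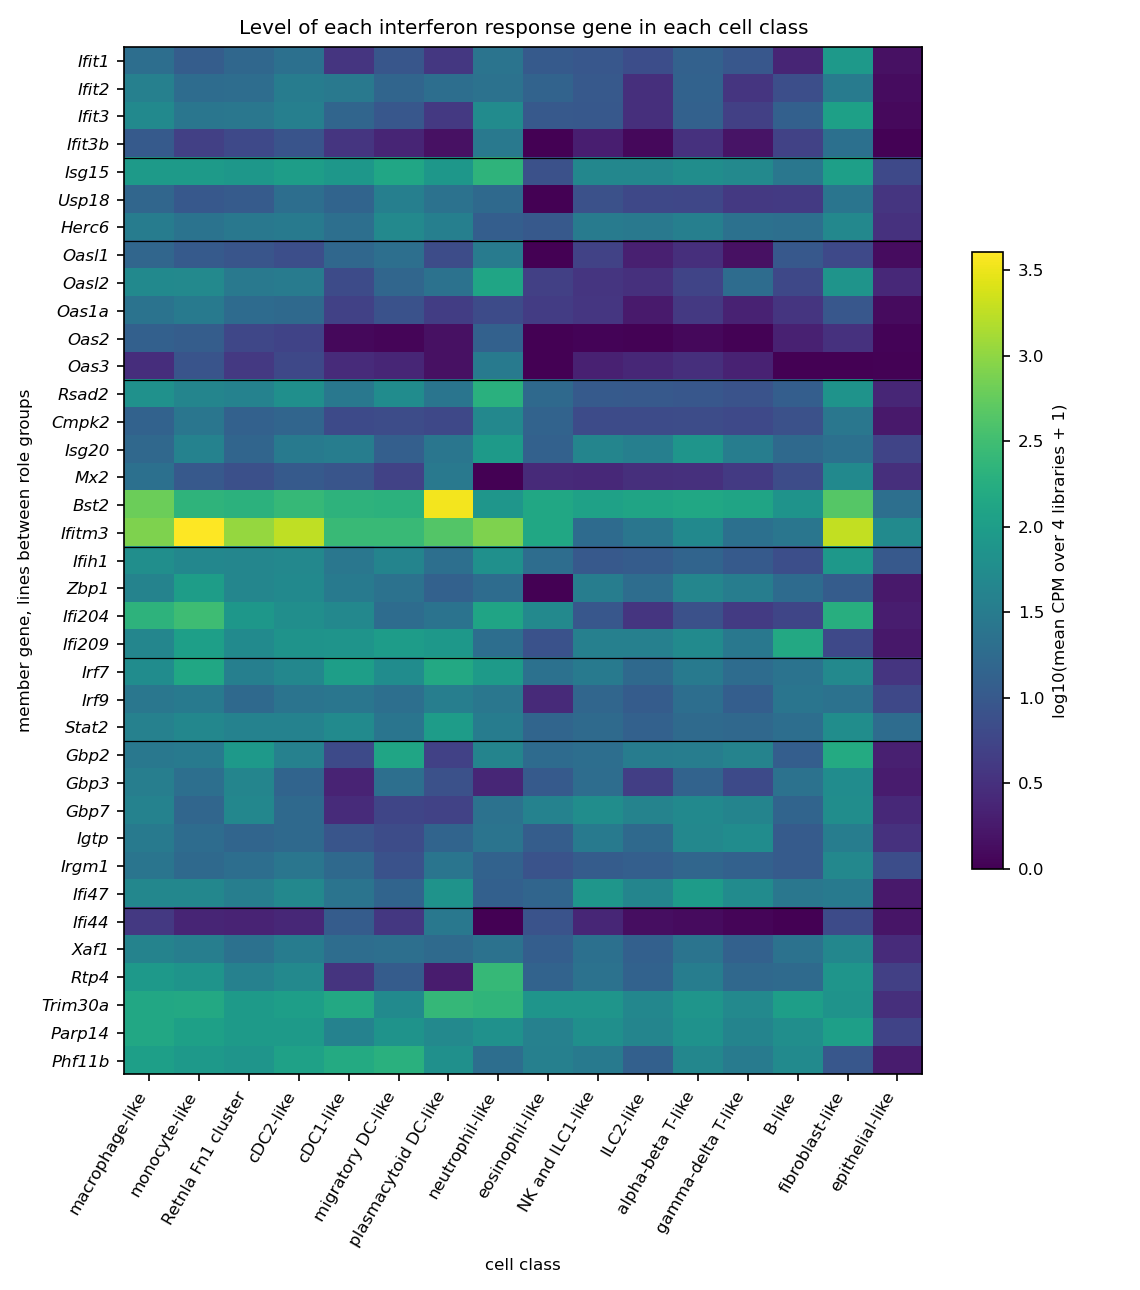
Level of each of the 37 genes (rows, grouped by role) in each cell class (columns), as log10 of the mean CPM over 4 libraries plus 1. Bst2 in plasmacytoid dendritic cells and Ifitm3 in monocyte-like cells are the brightest squares, and the epithelial column is dark throughout.

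The IFIT genes, whose proteins bind viral RNA, were highest in macrophage-like or cDC2-like cells. Ifit3 averaged 50.2 ± 12.1 CPM in macrophage-like cells, 35.03 ± 10.2 CPM in cDC2-like cells and 25.8 CPM in the Retnla Fn1 cluster, and these ranges overlapped. Ifit2 averaged 35.7 ± 7.71 CPM in macrophage-like cells and 31.5 ± 6.57 CPM in cDC2-like cells. Ifit1 averaged 20.3 ± 4.82 CPM in cDC2-like cells and 19.1 ± 4.46 CPM in macrophage-like cells.

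The 3 genes of the ISG15 system were all highest in migratory dendritic cells, the Ccr7-expressing cells on their way to lymph nodes. Isg15, a ubiquitin-like modifier, averaged 134.8 ± 26.6 CPM there and 101.0 ± 32.4 CPM in cDC2-like cells. Usp18, which removes ISG15 and dampens IFNAR signalling, averaged 35.1 ± 6.94 CPM in migratory dendritic cells. The next class, plasmacytoid dendritic cells, had 21.7 ± 5.38 CPM, and the libraries did not overlap. Herc6, the main ISG15 ligase of the mouse, averaged 49.3 ± 6.14 CPM in migratory dendritic cells.

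Of the OAS family, which senses double-stranded RNA or derives from such sensors, Oas2 averaged 11.6 ± 0.453 CPM in macrophage-like cells and 10.5 ± 1.04 CPM in monocyte-like cells. The third class had 4.77 CPM, below every monocyte value. Oasl2 averaged 50.6 ± 9.45 CPM in macrophage-like cells and 48.5 ± 6.56 CPM in monocyte-like cells. Oas1a and Oas3 were highest in monocyte-like cells, at 29.99 ± 5.62 and 7.52 ± 0.679 CPM. Oasl1, a negative regulator of Irf7 translation in mice, averaged 19.4 ± 7.64 CPM in migratory dendritic cells and 14.9 ± 9.16 CPM in cDC1-like cells.

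Among the other effectors, Bst2 (tetherin, the plasmacytoid antigen PDCA-1) averaged 3405 ± 447.5 CPM in plasmacytoid dendritic cells and 617.6 ± 39.2 CPM in macrophage-like cells. Ifitm3, which blocks viral entry from endosomes, averaged 4004 ± 155.8 CPM in monocyte-like cells and 1788 ± 339.3 CPM in cDC2-like cells. Both leading classes stood clear of the next in every library. Rsad2 (viperin) averaged 66.5 ± 17.3 CPM in macrophage-like cells and 62.2 ± 9.49 CPM in cDC2-like cells, and these overlapped. Its genomic neighbour Cmpk2, a mitochondrial nucleotide kinase, was instead highest in monocyte-like cells, at 25.2 ± 4.31 CPM against 14.1 ± 1.83 CPM in cDC2-like cells. Isg20, an exonuclease, was highest in lymphoid cells, with 75.0 ± 6.27 CPM in alpha-beta T cells and 43.0 ± 4.64 CPM in NK-like and ILC1-like cells. Mx2 averaged 27.3 ± 36.4 CPM in plasmacytoid dendritic cells, a mean that rested on 23 UMIs in the Csf2+/- male library, and 20.3 ± 2.25 CPM in macrophage-like cells.

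The nucleic acid sensors were spread over several classes. Ifi204, a member of the p200 DNA sensor family, averaged 308.4 ± 32.7 CPM in monocyte-like cells and 212.0 ± 14.98 CPM in macrophage-like cells. Zbp1, which binds Z-form nucleic acid, averaged 99.96 ± 13.1 CPM in monocyte-like cells and 49.5 ± 8.81 CPM in cDC2-like cells. Ifi209, a relative of Ifi204, was highest in B cells, at 150.4 ± 9.60 CPM, above the 106.3 ± 7.77 CPM of monocyte-like cells in every library. Ifih1 (MDA5, a sensor of long double-stranded RNA) averaged 58.4 ± 3.45 CPM in macrophage-like cells and 46.9 ± 11.9 CPM in cDC2-like cells.

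The 3 transcription factors were all highest in plasmacytoid dendritic cells, the ordered class with the fewest cells. Stat2 averaged 96.9 ± 17.6 CPM there and 51.2 ± 5.94 CPM in cDC1-like cells, without overlap. Irf7 averaged 148.9 ± 50.4 CPM in plasmacytoid dendritic cells and 137.5 ± 32.2 CPM in monocyte-like cells, and Irf9 averaged 34.0 ± 16.5 and 29.7 ± 3.10 CPM in the same classes. Neither of these 2 differences exceeded the spread between libraries.

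The interferon-inducible GTPases did not follow the effectors. Ifi47 averaged 92.7 ± 6.70 CPM in alpha-beta T cells, Gbp7 averaged 57.9 ± 3.70 CPM in NK-like and ILC1-like cells, and Igtp averaged 54.6 ± 14.4 CPM in gamma-delta T cells. Gbp2 averaged 129.1 ± 39.5 CPM in migratory dendritic cells and 85.6 ± 8.97 CPM in the Retnla Fn1 cluster. Gbp3 averaged 43.0 ± 6.55 CPM in that cluster and 33.3 ± 6.38 CPM in macrophage-like cells. Irgm1 was nearly level, at 25.1 ± 3.28 CPM in cDC2-like and 23.9 ± 1.81 CPM in macrophage-like cells.

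Of the remaining genes, Parp14, an ADP-ribosyltransferase, averaged 143.5 ± 9.88 CPM in macrophage-like cells and 108.8 ± 15.4 CPM in monocyte-like cells. Rtp4, which restrains some RNA viruses, averaged 86.6 ± 6.00 and 72.5 ± 10.2 CPM in these classes, and Xaf1 averaged 39.5 ± 1.72 and 34.1 ± 4.85 CPM. Trim30a averaged 253.5 ± 24.4 CPM in plasmacytoid dendritic cells, without overlap with the next class. Ifi44 averaged 26.99 ± 10.8 CPM there and at most 10.3 CPM in any other ordered class. Phf11b averaged 190.9 ± 21.2 CPM in migratory dendritic cells and 160.8 ± 13.3 CPM in cDC1-like cells. Over all 37 genes, the highest ordered class was macrophage-like for 10, plasmacytoid dendritic for 7, monocyte-like for 6 and migratory dendritic for 6, with 8 genes spread over 6 other classes.

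Levels also varied within classes. Of the 2 macrophage-like clusters led by Pf4 and Mrc1, the larger had a 35-gene sum of 2272 ± 157.2 CPM and the smaller 1807 ± 250.6 CPM. A cluster led by Apoe and Lyz2 had 1870 ± 248.5 CPM. The largest cluster led by Ccl4 and Il1a had 1290 ± 131.3 CPM, below the larger Pf4 and Mrc1 cluster in every library, and a cluster led by C1qb, Apoe and Aif1 had 993.7 ± 176.2 CPM. The main cDC2-like cluster had 1418 ± 167.6 CPM and the dividing one 996.3 ± 208.3 CPM.

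Few of the 21 ligand genes of the pathway passed the count filter used for the tests below, at most 2 in any class tested. Ifng was concentrated in NK-like and ILC1-like cells, at 91.5 ± 12.02 CPM, and alpha-beta T cells, at 91.1 ± 19.9 CPM. Ifnb1 was found almost only in macrophage-like cells, with 3 and 17 UMIs in the Csf2-/- libraries and 25 and 90 UMIs in the Csf2+/- libraries. That was 0.150 and 0.658 CPM in Csf2-/- against 1.70 and 5.68 CPM in Csf2+/- cells (log2 fold change −3.15, SE 0.77, adjusted p = 0.221 by edgeR), so the groups did not overlap and the test was not passed. Among receptors, Ifnar1 was highest in ILC2s, at 84.5 ± 5.38 CPM, and Ifnar2 in plasmacytoid dendritic cells, at 233.5 ± 42.6 CPM. Ifngr1 was highest in gamma-delta T cells, at 1300 ± 164.6 CPM. Ifngr2 had 2.10 CPM in NK-like and ILC1-like cells and 14.1 CPM in alpha-beta T cells, the classes with the most Ifng, and 131.8 CPM in monocyte-like cells. Ifnlr1, the receptor for interferon lambda, had 4.09 CPM in epithelial and 3.87 CPM in macrophage-like cells, and 19.8 ± 11.04 CPM in the few neutrophils. Irf1 averaged 397.6 CPM in plasmacytoid dendritic cells and 277.1 CPM in cDC2-like cells. Mx1, a GTPase against influenza-like viruses that many laboratory strains lack in working form, averaged 58.9 ± 9.68 CPM in migratory dendritic cells. The interferon gamma-induced chemokine Cxcl9 averaged 275.4 ± 66.7 CPM in cDC1-like cells and 56.9 CPM in cDC2-like cells, and Cxcl10 averaged 208.8 CPM in cDC2-like and 199.0 CPM in macrophage-like cells.

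The comparison of Csf2-/- with Csf2+/- glands asked which classes changed these genes when GM-CSF was lacking. It was tested in the Retnla Fn1 cluster and in the 11 named classes for which no library had under 50 cells. Across the 11 named classes, 14 differences passed an adjusted p of 0.05, and 12 of them lay in cDC2-like cells.

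**Figure D2:**
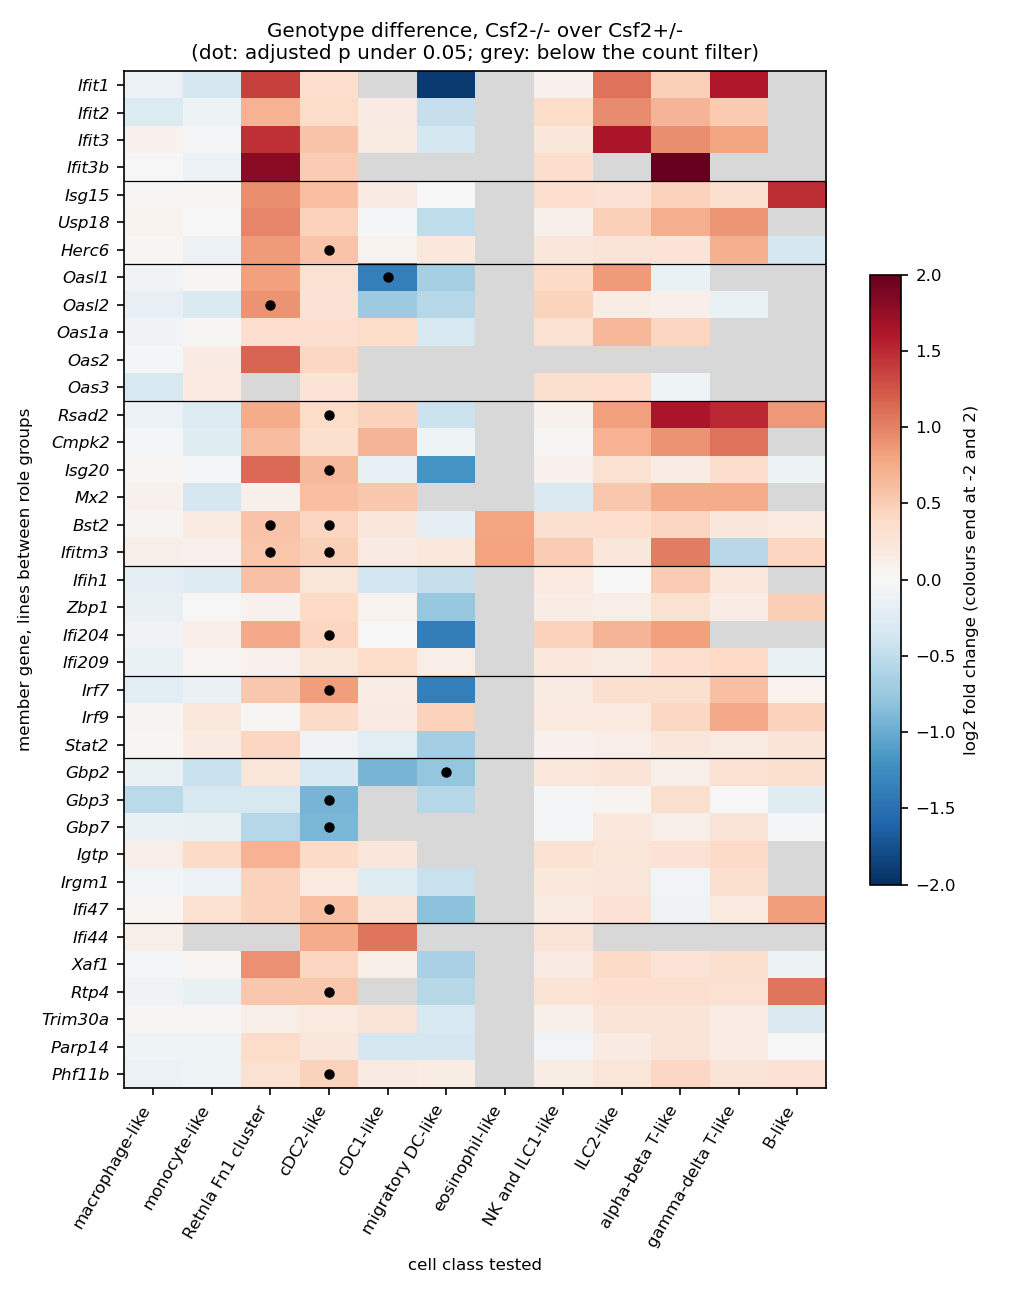
Log2 fold change, Csf2-/- over Csf2+/-, of each gene (rows) in each tested class (columns). Red is higher and blue lower in Csf2-/- cells, dots mark an adjusted p under 0.05, and grey squares did not pass the count filter. Most dots lie in the cDC2-like column.

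In Csf2-/- cDC2-like cells 10 interferon response genes rose and 2 fell. All 37 passed the count filter, 33 had a higher value in Csf2-/- cells, and their median log2 fold change was 0.39. In the same comparison 5.67% of 11050 genes passed (2.7% higher and 2.97% lower), and the median over all genes was 0.01. The 35-gene sum was 1479 and 1434 CPM in the Csf2-/- libraries, against 1184 and 1111 CPM in the Csf2+/- libraries.

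Of the transcription factors, Irf7 had 60.2 and 56.9 CPM in Csf2-/- cDC2-like cells, against 31.4 and 34.7 CPM in Csf2+/- cells (log2 fold change 0.83, SE 0.11, adjusted p = 0.000213 by edgeR). It was the largest rise among the 10, and no library overlapped. Irf9 (26.9 and 26.7, against 23.1 and 17.9 CPM) and Stat2 (38.5 and 36.3, against 38.0 and 41.0 CPM) did not pass the test.

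Of the other effectors, 4 of 6 rose. Ifitm3 had 2023 and 2134 CPM in Csf2-/- cells, against 1506 and 1487 CPM in Csf2+/- cells (log2 0.48, adjusted p = 0.000762 by edgeR). Bst2 had 289.3 and 306.5 CPM, against 220.5 and 222.3 CPM in Csf2+/- cells (log2 0.43, adjusted p = 0.00415 by edgeR). For both genes the Csf2+/- libraries were nearly equal, and both Csf2-/- libraries lay above them. Isg20 had 38.2 and 30.9 CPM, against 20.1 and 23.9 CPM in Csf2+/- cells (log2 0.65, adjusted p = 0.0139 by edgeR). Rsad2 had 71.5 and 68.7 CPM, against 51.3 and 57.5 CPM in Csf2+/- cells (log2 0.37, adjusted p = 0.0273 by edgeR).

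The GTPases split. Ifi47 rose, with 58.8 and 53.6 CPM in Csf2-/- cells and 37.8 and 36.2 CPM in Csf2+/- cells (log2 0.60, adjusted p = 0.00317 by edgeR). Gbp3 fell, with 10.2 and 8.63 CPM in Csf2-/- cells and 19.2 and 16.4 CPM in Csf2+/- cells (log2 −0.92, adjusted p = 0.00649 by edgeR). Gbp7 fell, with 10.5 and 11.4 CPM in Csf2-/- cells and 22.5 and 19.0 CPM in Csf2+/- cells (log2 −0.92, adjusted p = 0.00361 by edgeR). Gbp3 and Gbp7 are neighbours in the guanylate-binding protein cluster of chromosome 3, whose products attack vacuoles that hold pathogens. Their paralogue Gbp2 had 36.5 and 30.3, against 36.7 and 46.2 CPM, and did not pass.

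Among the remaining genes, Phf11b had 136.4 and 132.0 CPM in Csf2-/- cells, against 94.4 and 101.0 CPM in Csf2+/- cells (log2 0.47, adjusted p = 0.00372 by edgeR). Rtp4 had 55.2 and 58.2 CPM, against 42.0 and 36.3 CPM in Csf2+/- cells (log2 0.53, adjusted p = 0.00678 by edgeR). Ifi204, the only sensor of 4 to rise, had 62.6 and 74.2 CPM, against 52.9 and 49.1 CPM in Csf2+/- cells (log2 0.43, adjusted p = 0.0162 by edgeR). Herc6 had 36.6 and 33.0 CPM, against 25.4 and 21.6 CPM in Csf2+/- cells (log2 0.56, adjusted p = 0.0207 by edgeR). In each of these 4 genes both Csf2-/- libraries lay above both Csf2+/- libraries.

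Neither the 4 IFIT genes (median log2 0.44) nor the 5 OAS genes (median log2 0.30) held a gene past the threshold. Isg15 had 146.9 and 96.2 CPM in Csf2-/- cells, against 89.1 and 71.6 CPM in Csf2+/- cells, with a wide spread within each genotype (log2 0.60, adjusted p = 0.522 by edgeR).

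With 1 library left out, 7 of the 12 calls in cDC2-like cells held each time. Gbp3 was lost without the Csf2+/- female (adjusted p = 0.051 by edgeR). Isg20 was lost without the Csf2-/- female (0.0854) or the Csf2+/- female (0.108), and Rsad2 without the same libraries (0.167 and 0.173). Herc6 was lost without the Csf2-/- female (0.0855) or the Csf2+/- male (0.134), and Ifi204 without the Csf2-/- male (0.151) or the Csf2+/- male (0.0966). DESeq2 also left these last 4 genes above the threshold.

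**Figure D3:**
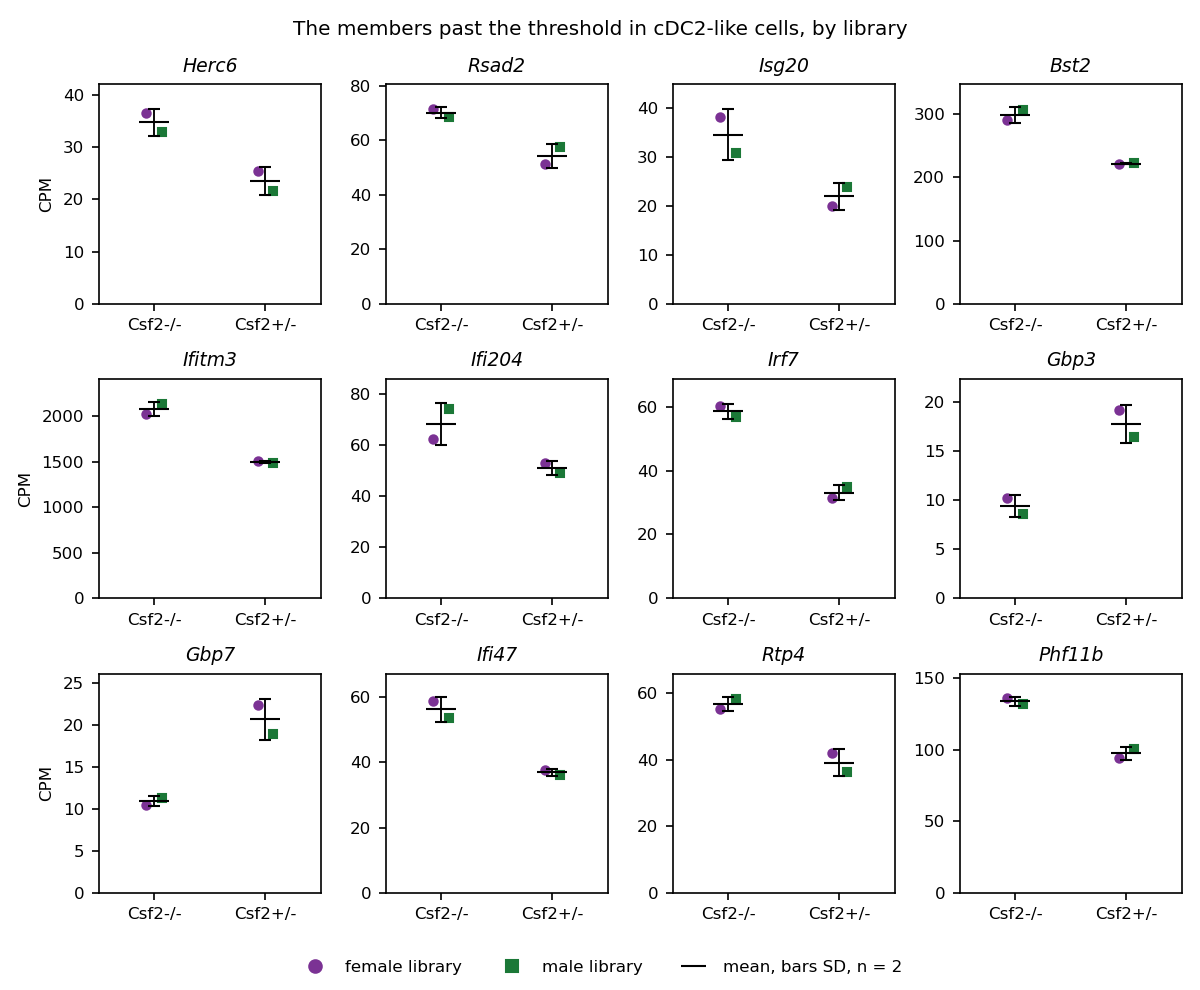
CPM of the 12 genes past the threshold in cDC2-like cells, by library, with the mean and SD of each genotype (n = 2). In every panel the Csf2-/- and Csf2+/- libraries do not overlap, and Gbp3 and Gbp7 are the panels in which Csf2-/- lies lower.

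Transcripts of other cell types moved with genotype in the same cDC2-like cells. The summed markers of alpha-beta T cells stood at 251.5 and 336.3 CPM in Csf2-/- and 88.2 and 156.7 CPM in Csf2+/- cells, with 12 of 13 genes above in both Csf2-/- libraries and none at 0. Those of NK-like and ILC1-like cells stood at 421.2 and 419.5 CPM, against 251.1 and 227.3 CPM (8 of 12 genes). Those of macrophages stood at 1002 and 1314 CPM, against 818.9 and 862.3 CPM (7 of 12), and those of plasmacytoid dendritic cells at 321.7 and 335.2 CPM, against 270.3 and 297.4 CPM (8 of 11). The cDC2 markers themselves were lower, at 2351 and 2588 CPM in Csf2-/- and 2749 and 3093 CPM in Csf2+/- cells. Markers of cDC1 cells were lower too, at 466.8 and 519.9 CPM, against 617.2 and 648.7 CPM (3 of 9 genes below, 2 above). The counts of marker genes here and below lack the share of all genes that stand apart in the same way. Median depth was 14784 and 14680 UMIs in Csf2-/- and 17879 and 16284 UMIs in Csf2+/- cells. The mitochondrial share of UMIs was 1.49 and 1.59% in Csf2-/- and 1.74 and 2.02% in Csf2+/- cDC2-like cells, and it was lower in both Csf2-/- libraries in 11 of the 12 units tested, all but eosinophils. The part of these differences in the results was not tested.

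The count was therefore repeated on subsets of the cDC2-like cells, chosen after the data were seen. Without cells holding a UMI of NK markers, 11 genes rose and 2 fell, where 3.76% of all genes passed. Without cells holding plasmacytoid, cDC1 or T cell markers, 10 rose and 2 fell in each case, where 5.27%, 6.21% and 4.68% of all genes passed. Without monocyte markers 8 rose and 2 fell (5.38% of all genes), and without ILC2 markers 7 rose and none fell (2.35%). Without cells holding a Retnla or Fn1 UMI, 2 rose and 2 fell (median log2 0.16, with 2.95% of all genes passing). That subset kept 80% and 72.0% of the Csf2-/- cells but 58.9 and 55.7% of the Csf2+/- cells, and the one without ILC2 markers kept 75.2 and 74.3%, against 54.5 and 52.4%, so both removed unequal shares of the genotypes. Without cells holding a macrophage C1q UMI, 3 rose and 1 fell (median log2 0.15, with 1.64% of all genes passing). Without dividing cells, 6 rose and 2 fell (4.03% of all genes). In the 86 and 99 Csf2-/- and 61 and 67 Csf2+/- cells with no marker UMI of any other type, no gene passed, 4 of 31 had an unadjusted p under 0.05, the median log2 was −0.16 and 7 of 31 values were higher. In that smallest subset 0.177% of all genes passed, and 631 of 7364 had an unadjusted p under 0.05.

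Other genes of the interferon pathway in cDC2-like cells were described from lists of related genes. Of 70 other type I interferon-induced genes tested, 15 rose, 65 had a higher value, and the median log2 fold change was 0.29. Ifitm2, the neighbour of Ifitm3, had 842.1 and 851.1 CPM in Csf2-/- cells, against 569.3 and 569.7 CPM in Csf2+/- cells (log2 0.58). Epsti1 rose by 0.61, Trim12a by 0.69 and Mx1 by 0.67 on the log2 scale. Of 5 receptor genes Il10rb (log2 0.44) and Ifngr1 (0.29) rose, and among the signalling genes Irf8 rose. Irf8, a factor of cDC1 and plasmacytoid cells, had 54.1 and 75.2 CPM in Csf2-/- cells, against 33.7 and 34.2 CPM in Csf2+/- cells (log2 0.94). Of 17 sensors and adaptors Ddx58 (RIG-I) rose (log2 0.47). Of 27 interferon gamma-type GTPases and targets 1 rose, Serpina3g (log2 0.72), and none of 10 negative regulators passed. Ifng transcripts also rose, with 12.1 and 9.58 CPM in Csf2-/- and 2.16 and 3.69 CPM in Csf2+/- cDC2-like cells (log2 1.91, adjusted p = 5.97e-04 by edgeR). That difference ran beside the NK and T cell markers given above, whose part in it was not tested.

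In the Retnla Fn1 cluster, which had few Csf2-/- cells, 3 interferon response genes rose. Ifitm3 had 1269 and 1311 CPM in Csf2-/- cells, against 872.4 and 889.1 CPM in Csf2+/- cells (log2 0.56, adjusted p = 0.00288 by edgeR). Bst2 had 221.6 and 264.6 CPM, against 157.8 and 168.6 CPM in Csf2+/- cells (log2 0.57, adjusted p = 0.0168 by edgeR). Oasl2 had 40.02 and 31.9 CPM, against 18.6 and 21.0 CPM in Csf2+/- cells (log2 0.89, adjusted p = 0.0433 by edgeR). Of 35 genes tested 33 had a higher value, with a median log2 fold change of 0.57, where 3.42% of 9738 genes passed (1.49% higher) and the median over all genes was 0.01. The median of the 35 was 0.24 without the Csf2-/- female, 0.81 without the Csf2-/- male, 0.41 without the Csf2+/- female and 0.96 with doublets kept. The 35-gene sum was 1553 and 1144 CPM in Csf2-/- and 896.4 and 1127 CPM in Csf2+/- cells, so the Csf2-/- female stood apart. Between genotypes 18 of the 35 genes overlapped. The share over all genes is not given, so this count has no background here. The Bst2 call was lost without the Csf2-/- male (adjusted p = 0.0503 by edgeR) or the Csf2+/- female (0.0533). The Oasl2 call was lost without the Csf2-/- female (0.264), the Csf2+/- female (0.264) or the Csf2+/- male (0.131), and with DESeq2 (0.312). Of 65 other type I interferon-induced genes 7 rose, among them Ifitm2 (log2 0.78), Ly6e (0.92) and Ms4a4c (1.48). Socs3, a feedback inhibitor of cytokine signalling, rose by 0.67 and Psmb8, an immunoproteasome subunit, by 0.42 on the log2 scale. Alpha-beta T cell markers stood at 224.5 and 144.5 CPM in the Csf2-/- and 59.9 and 61.9 CPM in the Csf2+/- cells of this cluster, and their part in the result was not tested.

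In migratory dendritic cells the values ran the other way. Gbp2 fell, with 94.4 and 98.6 CPM in Csf2-/- cells and 147.4 and 176.1 CPM in Csf2+/- cells (log2 −0.77, adjusted p = 0.0355 by edgeR), where 0.515% of 7968 genes passed (0.289% lower). Of 30 genes tested 24 had a lower value, with a median log2 fold change of −0.47. Irf7 had 22.1 and 39.0 CPM, against 54.6 and 105.7 CPM in Csf2+/- cells, and did not pass. The 35-gene sum was 1020 and 1095 CPM in Csf2-/- and 1223 and 1356 CPM in Csf2+/- cells, without overlap. Among related genes, Cxcl9 fell to 2.01 and 3.18 CPM in Csf2-/- cells, against 73.7 and 58.9 CPM in Csf2+/- cells (log2 −4.64, adjusted p = 2.25e-05 by edgeR). Cd274 (PD-L1) had 211.0 and 221.9 CPM, against 393.8 and 380.6 CPM in Csf2+/- cells (log2 −0.87), and Irf8 fell by 0.89 on the log2 scale. Shisa5 rose by 0.91. The Gbp2 call was lost without the Csf2-/- female (adjusted p = 0.185 by edgeR), the Csf2-/- male (0.188) or the Csf2+/- male (0.0803), with doublets kept (0.103) and with DESeq2 (0.154). The markers of migratory dendritic cells themselves were lower, at 9670 and 8773 CPM in Csf2-/- and 10790 and 10120 CPM in Csf2+/- cells (4 of 11 genes below, 2 above). Macrophage markers were higher, at 620.9 and 582.9 CPM in Csf2-/- and 438.7 and 409.5 CPM in Csf2+/- cells (9 of 12 above). Alpha-beta T cell markers were higher too, at 227.1 and 194.0 CPM, against 120.7 and 47.8 CPM in Csf2+/- cells (10 of 13). So were those of NK-like cells (253.2 and 212.3, against 209.2 and 158.2 CPM, 3 of 12) and ILC2s (184.9 and 287.1, against 131.3 and 144.0 CPM, 7 of 12). These counts of marker genes have no share over all genes beside them. The part of these transcripts in the result was not tested.

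In cDC1-like cells Oasl1 fell, with 8.35 and 8.32 CPM in Csf2-/- cells and 15.1 and 27.8 CPM in Csf2+/- cells (log2 −1.37, adjusted p = 0.0313 by edgeR), where 1.39% of 9127 genes passed (1.23% lower). The call was lost without the Csf2-/- male (adjusted p = 0.124 by edgeR) or the Csf2+/- male (0.397). The other 29 genes tested did not pass. The markers of cDC1 cells were lower in the same cells, at 3616 and 3679 CPM in Csf2-/- and 4239 and 4503 CPM in Csf2+/- cells (6 of 9 genes below). So were those of migratory dendritic cells, the ordered class with the highest mean Oasl1, at 227.3 and 291.6 CPM, against 310.0 and 432.2 CPM (4 of 11 below), and of macrophages, at 814.9 and 743.8 CPM, against 857.3 and 971.8 CPM (5 of 12 below). Monocyte markers were higher, at 858.5 and 984.8 CPM, against 683.9 and 617.1 CPM in Csf2+/- cells (5 of 11 above). The part of these transcripts in the result was not tested. Of related genes Tnfaip3, an inhibitor of NF-kB, fell by 0.57 on the log2 scale.

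In macrophage-like cells no interferon response gene passed, and neither did any of the 12969 genes tested (0.0%), although 1747 had an unadjusted p under 0.05 and DESeq2 called 161. Of the 37 genes 14 had a higher value, and the median log2 fold change was −0.06. The 35-gene sum was 1506 and 1796 CPM in Csf2-/- cells, against 1782 and 1542 CPM in Csf2+/- cells, so the sexes ran in opposite order in the 2 genotypes. Gbp3 was the 1 gene with an unadjusted p under 0.05, with 27.5 and 28.1 CPM in Csf2-/- cells and 38.0 and 39.6 CPM in Csf2+/- cells (log2 −0.54, adjusted p = 0.121 by edgeR). The next by p were Ifih1 (log2 −0.18), Phf11b (−0.12), Ifit2 (−0.27), Oas3 (−0.32) and Igtp (0.14). Tested apart, the Il1a clusters had 7 of 37 higher values (median −0.21), the Pf4 Mrc1 clusters 15 of 37 (−0.06) and a cluster led by Apoe and Lyz2 15 of 35 (−0.03), with none of these genes past the threshold. The share of all genes that passed was 0.0769% in the Il1a clusters, 8.04% in the Pf4 Mrc1 clusters and 0.169% in the last. An unadjusted p under 0.05 was found for 8 of 37, 2 of 37 and 3 of 35 of the interferon response genes in the same clusters. Over all genes it was found for 1017 of 11709, 2974 of 11489 and 675 of 9476.

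In monocyte-like cells 15 of 36 genes had a higher value (median −0.03) and none passed, where 1.15% of 9722 genes did. The lowest p belonged to Oasl2, which averaged 43.3 ± 4.67 CPM in Csf2-/- cells, against 53.6 ± 0.490 CPM in Csf2+/- cells (SD, 2 libraries each, adjusted p = 0.396 by edgeR), and to Ifi47 (log2 0.30).

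Lymphoid classes had higher values that did not pass the test. The counts below at an unadjusted p under 0.05 lack the share of all genes at that threshold. The shares of genes that passed are no background for them. The median log2 fold change over all genes was 0.0 in ILC2-like and −0.001 in alpha-beta T cells. It was 0.003 in NK-like and ILC1-like cells and 0.003 in gamma-delta T cells. In ILC2-like cells all 34 genes tested had a higher value in Csf2-/- cells, with a median log2 fold change of 0.29, and 14 had an unadjusted p under 0.05. Csf2 itself was the 1 gene of 11591 to pass there (0.00863%). Ifit1 had 9.18 and 7.85 CPM, against 4.15 and 3.57 CPM in Csf2+/- cells (log2 1.09, adjusted p = 0.123 by edgeR), and Ifit3 had 3.90 and 2.30 CPM, against 1.07 and 0.812 CPM (log2 1.63, adjusted p = 0.265 by edgeR). In alpha-beta T cells 31 of 35 genes had a higher value (median 0.33), and 17 had an unadjusted p under 0.05. Ifit3b had 3.78 and 3.77 CPM, against 0.591 and 0.788 CPM in Csf2+/- cells (adjusted p = 0.0979 by edgeR), and Isg15 had 66.5 and 65.9 CPM, against 46.4 and 48.4 CPM (adjusted p = 0.164 by edgeR), where 0.127% of 11056 genes passed. In NK-like and ILC1-like cells 32 of 36 values were higher (median 0.20), 7 with an unadjusted p under 0.05, led by Bst2 (log2 0.33) and Igtp (0.30), where 0.00769% of 13007 genes passed. In gamma-delta T cells 28 of 30 values were higher (median 0.32), 4 with an unadjusted p under 0.05. The 35-gene sum there was 533.2 and 872.5 CPM in Csf2-/- and 523.3 and 592.7 CPM in Csf2+/- cells, so the Csf2-/- male stood apart. Between genotypes 23 of the 30 genes overlapped, a count given without the share over all genes. The median was −0.05 without the Csf2-/- male and 0.65 without the Csf2-/- female. Irf9 (log2 0.76) and Ifitm3, with a lower value (−0.56), had the lowest p, where 0.148% of 10155 genes passed. In B cells 13 of 20 values were higher, led by Rtp4 (log2 1.07) and Ifi47 (0.84), where 0.0958% of 7306 genes passed. In eosinophils, where 0.15% of 1999 genes passed, Bst2 (log2 0.79) and Ifitm3 (0.80) were tested and did not pass.

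In 4 of these lymphoid classes transcripts of macrophage markers were higher in both Csf2-/- libraries. They stood at 261.7 and 255.6 CPM in Csf2-/- and 179.0 and 188.7 CPM in Csf2+/- ILC2-like cells (8 of 12 genes above). They stood at 927.3 and 948.0 CPM, against 581.7 and 409.8 CPM, in alpha-beta T cells (9 of 12), and at 413.3 and 325.7 CPM, against 242.3 and 212.9 CPM, in NK-like and ILC1-like cells (11 of 12). In gamma-delta T cells they stood at 279.1 and 263.2 CPM, against 236.2 and 245.3 CPM (3 of 12). In B cells the genotypes overlapped, at 634.8 and 553.8 CPM in Csf2-/- and 725.8 and 321.1 CPM in Csf2+/- cells. Plasma cell markers also stood apart in alpha-beta T cells, at 364.3 and 236.2 CPM in Csf2-/- and 12.3 and 9.77 CPM in Csf2+/- cells, with 3 of 6 genes above and none at 0. 1 of the alpha-beta T clusters was led by Igkc, Igha and Jchain. No macrophage marker was at 0 in any of these classes, and the part of such transcripts in the higher values was not tested. The counts of marker genes above are given without the share over all genes.

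**Figure D4:**
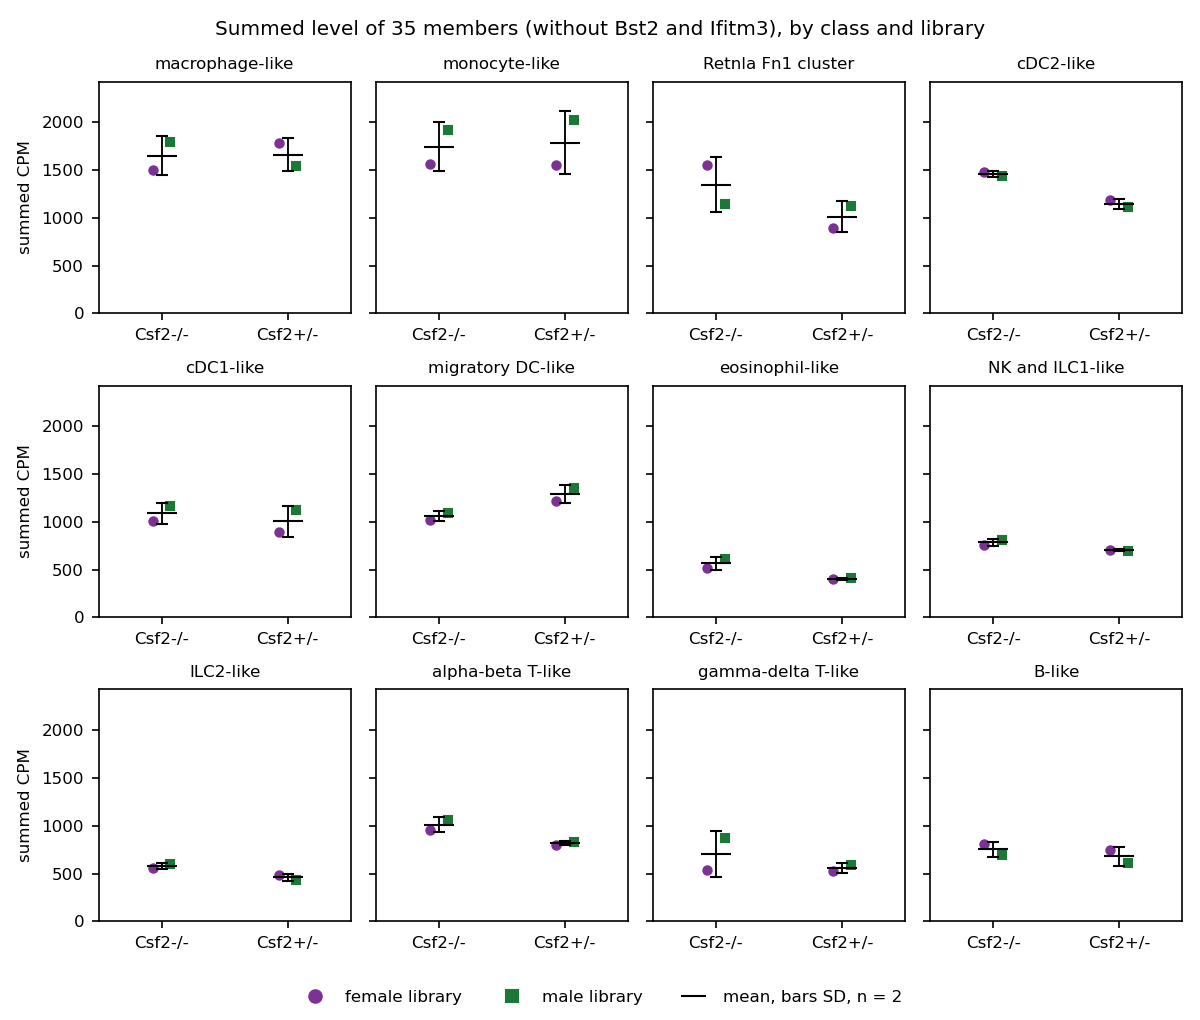
Summed CPM of the 35 genes other than Bst2 and Ifitm3, by class and library, with the mean and SD of each genotype (n = 2) on 1 shared axis. The Csf2-/- libraries lie above the Csf2+/- libraries in cDC2-like, ILC2-like and alpha-beta T cells and below them in migratory dendritic cells. They also lie above in eosinophils (517.6 and 614.2, against 399.0 and 412.3 CPM). In the Retnla Fn1 cluster they do so narrowly, with 1144 CPM in the Csf2-/- male against 1127 CPM in the Csf2+/- male. The genotypes overlap in macrophage-like and monocyte-like cells.

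Whether the genotype difference itself differed between classes was tested with the library as a term, cDC2-like cells against 4 other classes. Phf11b differed more in cDC2-like than in macrophage-like cells (difference of log2 fold changes 0.56, adjusted p = 0.0345 by edgeR) and than in monocyte-like cells (0.54, adjusted p = 0.0427 by edgeR). Rtp4 did so too (0.57, adjusted p = 0.0345, and 0.68, adjusted p just under the threshold, 0.05 when rounded, by edgeR). Ifitm3 differed from monocyte-like cells by 0.38 (adjusted p = 1.19e-05 by edgeR). Gbp7 fell more in cDC2-like than in macrophage-like cells (−0.82, adjusted p = 0.0489 by edgeR) and than in NK-like and ILC1-like cells (−0.88, adjusted p = 0.0135 by edgeR). Irf7 differed from migratory dendritic cells by 2.20 (adjusted p = 0.0165 by edgeR) and from NK-like and ILC1-like cells by 0.64 (adjusted p = 0.0367 by edgeR), and Ifi204 differed from migratory dendritic cells by 1.85 (adjusted p = 0.0306 by edgeR). The share of all genes that passed this test was 1.04% against macrophage-like, 2.77% against monocyte-like, 0.356% against migratory dendritic and 1.56% against NK-like and ILC1-like cells. For the other genes called in cDC2-like cells, among them Bst2, Isg20, Rsad2 and Gbp3, a difference between classes was not shown.

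Each genotype had 1 library of each sex, so female and male glands were compared with genotype in the model, which left 1 residual degree of freedom. In that fit 13 differences passed, but with sex as the only term 1 passed, and DESeq2 called 0. In monocyte-like cells 32 of 36 genes had a lower value in females, and 4 fell: Ifit3, Isg15, Irf7 and Isg20, where 0.72% of 9722 genes passed (0.339% lower). Ifit3 had 15.5 and 15.5 CPM in the Csf2-/- and Csf2+/- females, against 32.9 and 35.1 CPM in the Csf2-/- and Csf2+/- males (log2 −1.11, adjusted p = 9.09e-07 by edgeR). Isg15 had 78.4 and 65.2 CPM in females, against 106.5 and 116.5 CPM in males (log2 −0.62), and Irf7 had 105.7 and 115.6 CPM in females, against 154.9 and 173.8 CPM in males (log2 −0.55). In each of these genes both female libraries lay below both male libraries. Isg20 had 30.7 and 30.7 CPM in females, against 45.9 and 47.9 CPM in males (log2 −0.59). In cDC1-like cells Ifit2 (log2 −1.18), Ifih1 (−0.92) and Rsad2 (−0.91) were lower in females, where 0.559% of genes passed (0.197% lower). In migratory dendritic cells Ifitm3 (−0.77) and Irf7 (−0.88) were lower in females, where 0.402% passed (0.264% lower). Isg15 was higher in females in B cells (log2 1.59), cDC2-like cells (0.51) and NK-like and ILC1-like cells (0.28), and Isg20 was higher in the last (0.29). In cDC2-like cells the sexes overlapped, and the call was lost with doublets kept (adjusted p = 0.266 by edgeR) or at resolution 0.8 (0.922). It was also lost at 1000 UMIs or more per cell (0.261), at 5% mitochondrial UMIs (0.517) and without shared barcodes (0.126). The B cell call was lost with doublets kept (0.0532). Both NK-like and ILC1-like calls were lost at resolution 0.8 (0.0846 for Isg15 and 0.072 for Isg20). The share of all genes that passed was 0.246% in B cells (0.137% higher), 0.172% in cDC2-like cells (0.0905% higher) and 2.91% in NK-like and ILC1-like cells (1.23% higher). In gamma-delta T cells 29 of 30 values were lower in females, led by Bst2 (log2 −0.56, adjusted p = 0.0568 by edgeR) and Gbp2 (−0.75, adjusted p = 0.0576 by edgeR), and none passed, where 0.217% of all genes did. None of the 35 tested passed in the Retnla Fn1 cluster either (1 had an unadjusted p under 0.05), where 0.216% did. No interferon response gene passed in macrophage-like cells, where 2.21% of all genes did and Irf9 (log2 0.34, adjusted p = 0.0993 by edgeR) and Mx2 (0.30) had the lowest p.

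Finally, single cells with several of the most inducible genes were counted. Each cell was thinned to 3000 UMIs, and a cell counted when it held a UMI of at least 3 of Ifit1, Ifit2, Ifit3, Ifit3b, Isg15, Rsad2, Oasl1, Cmpk2, Usp18 and Irf7. Ifit3 and its near-copy Ifit3b, whose reads may not be told apart, counted as separate genes. In cDC2-like cells the share was 6.35% (95% exact binomial interval 4.15 to 9.22%) and 6.67% (4.66 to 9.19%) in the Csf2-/- libraries, against 4.01% (2.39 to 6.26%) and 4.28% (2.55 to 6.67%) in the Csf2+/- libraries, and these intervals overlapped. In alpha-beta T cells it was 2.62 and 3.78% in Csf2-/- and 1.23 and 1.13% in Csf2+/- cells. In ILC2-like cells it was 1.57 and 1.53%, against 0.884 and 0.694% in Csf2+/- cells. In macrophage-like cells the share was 5.72 and 8.43% in Csf2-/- and 8.15 and 5.22% in Csf2+/- cells, so the female was the lower library in Csf2-/- and the higher in Csf2+/- glands. In monocyte-like cells it followed sex, at 3.79% in the female and 6.88% in the male Csf2-/- library, and 3.58% and 6.55% in those of the Csf2+/- glands. As a measure of free RNA, epithelial cells, which had low levels of these genes, held 3 such cells of 289, all in the Csf2-/- female library. Their share in that library was 2.4%, against 1.57% in its ILC2-like, 2.62% in its alpha-beta T and 6.35% in its cDC2-like cells. Intervals cover counting error only. With the interferon genes kept for clustering, 3 of 38 clusters had an interferon response gene among their 10 leading genes, and none had more than 1. These were Ifitm3 in a monocyte-like and a cDC2-like cluster and Bst2 in a plasmacytoid one, neither of them among the genes counted per cell. Whether cells with several of those genes formed a cluster of their own was not tested.

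**Figure D5:**
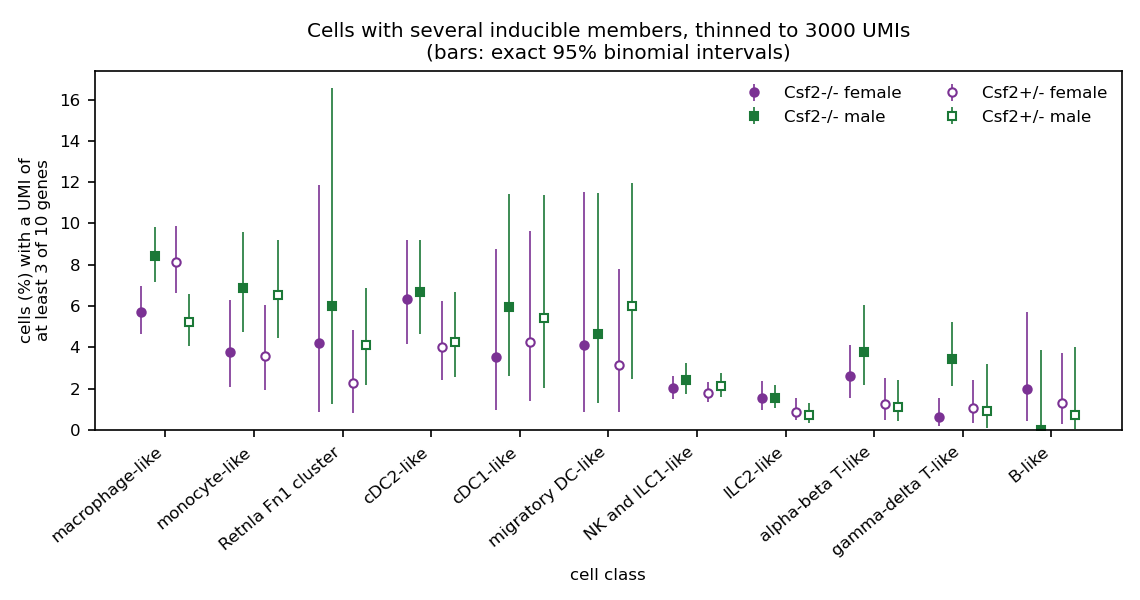
Share of cells (%) with a UMI of at least 3 of the 10 most inducible genes after thinning to 3000 UMIs, by class and library, with exact 95% binomial intervals. In cDC2-like cells both Csf2-/- libraries (6.35 and 6.67%) lie above both Csf2+/- libraries (4.01 and 4.28%), with overlapping intervals.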

How the data were processed

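Single-cell 3′ RNA libraries (10x Chromium, kit v2 per the labels' protocols) were made from CD45+ cells. The deposited values are raw UMI counts per gene and barcode, made by the authors with Cell Ranger 7.0.0 on GRCm39, per the submitters' processing notes. Barcodes under 500 UMIs, under 300 genes or above 10% mitochondrial UMIs were dropped, which left 37644. Scrublet (scanpy 1.11.5) marked at most 0.0343% of barcodes as doublets by its own threshold. The top-scoring 7.01 to 7.80% per library, as many doublets as the loading predicts, were removed instead, before clustering (Leiden, resolution 1.5). Cluster names came from marker lists, by a rule set with the clusters in view. 5 clusters stayed unnamed, 1 of them the Retnla Fn1 cluster. The genes described and all lists were chosen with earlier results of these data known.

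UMIs were summed per library and class, and CPM computed from the sums. Genotype was tested with edgeR 4.0.16 (TMM, filterByExpr, robust quasi-likelihood test, genotype as the only term, 2 residual degrees of freedom, Benjamini-Hochberg within class, threshold 0.05) where no library had under 50 cells of the class, and the fit was tested on simulated data. Female against male used genotype as a covariate. Alternatives were DESeq2 1.42.0, RLE scaling, no count filter, sex as a block, each library left out, other cell filters and resolutions. Genes past 0.05 are named, otherwise the 6 with the lowest p in macrophage-like cells and the 2 with the lowest p in every other class. Classes with under 250000 UMIs in any library were left out of the order of levels, a limit set after the data were seen. With 2 pools per genotype, p-values measure the spread between pools, which in the genotype fit includes any difference between the sexes. Fewer cells with a transcript and less RNA per cell cannot be told apart in summed counts. Results for some related pathway genes that passed the test, in either direction, are not reported here.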

Additional observations from a re-analysis of the deposited data

Results flagged for a closer look

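The genotype difference of 6 interferon response genes differed between cDC2-like cells and another class by a test of that difference (log2 fold change, Csf2-/- over Csf2+/-, in cDC2-like cells minus that in the other class). Against macrophage-like cells the difference was −0.825 for Gbp7, 0.560 for Phf11b and 0.575 for Rtp4. Against monocyte-like cells it was 0.385 for Ifitm3, 0.540 for Phf11b and 0.678 for Rtp4. Against migratory dendritic cells it was 1.851 for Ifi204 and 2.196 for Irf7. Against NK-like and ILC1-like cells it was −0.881 for Gbp7 and 0.645 for Irf7. The same 4 libraries supplied all classes, and the test was made after the data were seen.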

How the results depend on the processing

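Over the 11 named classes, 14 genotype differences of interferon response genes passed in the form reported. This became 33 without the count filter, 25 with sex as a replicate block, 8 with DESeq2, 27 at the coarser clustering (resolution 0.8) and 17 to 19 with 1 library left out. The count over all genes in macrophage-like cells, 0 as reported, was 204 without the filter, 964 with the block, 161 with DESeq2 and 0 to 904 with 1 library left out. It was 904 without the Csf2-/- female library, 102 without the Csf2-/- male and 3 without the Csf2+/- female. The replicate number in the labels marks sex, with 2 pairs. Across genes, deviations of the female libraries from their genotype means correlated by 0.304 in macrophage-like and 0.197 in NK-like cells. In the other classes the correlation was −0.141 to 0.089. Female libraries thus shared part of their deviations in macrophage-like and NK-like cells, and pairing is not shown in the other classes.

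The 13 sex differences became 30 without the filter, 1 with sex as the only term, 0 with DESeq2, and 1 to 11 with sex as the only term and 1 library left out (1 and 4 where the female left out was Csf2-/- or Csf2+/-). The 10 genes higher in cDC2-like cells became 6 with DESeq2, 16 with doublets kept, 23 at resolution 0.8, 6 without dividing cells, 2 without Retnla or Fn1 UMIs, 3 without C1q UMIs, 0 without any other marker and 8 to 14 with 1 library left out. The 2 lower genes became 1 without C1q UMIs, 0 without ILC2 markers, 0 without any other marker and 1 to 2 with 1 library left out. The 3 genes higher in the Retnla Fn1 cluster became 10 without the filter, 24 with doublets kept, 11 at 1000 UMIs or more per cell and 2 to 9 with 1 library left out, and the cluster did not form in 3 of the clusterings. The cause of these changes was not tested.

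In cDC2-like cells without any other marker, log2 fold changes turned to −0.004 for Irf7, −0.157 for Ifi47, −0.048 for Phf11b, −0.130 for Bst2, −0.178 for Isg20, −0.297 for Ifi204, −0.476 for Herc6 and −0.472 for Rsad2, and Rsad2 was −0.518 without C1q UMIs. Among differences that had not passed, Ifitm3 in gamma-delta T cells turned to 0.114 at 5% mitochondrial UMIs and Ifit2 in macrophage-like cells ranged over −0.524 to 0.046 with 1 library left out, the highest without the Csf2+/- female. For sex, with 1 library left out, Irf7 in migratory dendritic cells turned to 0.135, Rsad2 in alpha-beta T cells to 0.277, Ifit3 in ILC2s to −0.554, Ifit2 in the Retnla Fn1 cluster to 0.163 and, in eosinophils, Bst2 to 0.051 and 0.053 and Ifitm3 to −0.623. Ifitm3 in eosinophils was also −0.031 with doublets kept, −0.185 at 5% mitochondrial UMIs, −0.003 with interferon genes kept for clustering and −0.086 without shared barcodes. With interferon genes kept, Ifih1 and Ifit2 in the Retnla Fn1 cluster turned to 0.085 and 0.895. Classes with few UMIs had fewer of the 37 genes past the count filter, 20 in B cells and 2 in eosinophils.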
